A study of Homo sapiens with 12 samples.

Results

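LNCaP cells that received LSD1+8a, the splice form of the demethylase LSD1 that includes microexon 8a, were compared with LNCaP cells that received LSD1 without the microexon. The comparison took in all 13001 genes of the deposited count table and 6 of the 12 libraries of the study, 3 for each form. LNCaP (clone FGC) is an androgen-sensitive line from a lymph node metastasis of prostate cancer, and all cells were grown in medium with serum and transfected transiently by lipofection. The first group carried a plasmid coding for LSD1+8a and the second a plasmid coding for LSD1. The remaining 6 libraries came from cells with an empty vector or with SRRM4, a neural splicing factor, 3 of each, and are used below as levels for orientation. PolyA RNA was sequenced from whole cultures. A transient transfection leaves a mixture of cells that did and did not take up plasmid, so more expressing cells and more RNA per cell cannot be told apart. It is not stated whether replicates were independent cultures, so each p-value speaks only of the variation among these libraries, and that may be technical.

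LSD1, encoded by KDM1A, removes methyl groups from histone tails and acts with the corepressor RCOR1 (CoREST) and histone deacetylases on genes that include the targets of the repressor REST. Microexon 8a is used mainly in neurons, where the longer form is reported to act differently on chromatin. Type I interferon signals through its receptor to a transcription factor complex with IRF9, which binds an element in the promoters of antiviral genes. Hypoxia-inducible factor is held down by oxygen-dependent hydroxylases and raises genes for glycolysis and glucose uptake.

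The group labels name a single difference between the transfected forms, the microexon. In the GENCODE v29 annotation microexon 8a lies within the coding sequence of KDM1A and adds 12 bases, or 4 codons, without a shift of frame. What else the plasmids carry is not given in the sources used here. Gene-level counts sum all transcripts of KDM1A, so they do not show the microexon itself.

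KDM1A itself was far higher with LSD1+8a than with LSD1. The LSD1+8a libraries had 2608, 1983 and 2211 CPM (read counts scaled to a common library size with TMM factors), and the LSD1 libraries 515, 587 and 519 CPM. The lowest LSD1+8a library lay well above the highest LSD1 library. The empty-vector libraries had 94.0, 95.2 and 93.7 CPM and the SRRM4 libraries 96.9, 92.0 and 100.1 CPM, so both transfected groups stood above the cells' own level. The fitted log2 fold change between the forms was 2.07 (SE 0.10, 95% confidence interval 1.85 to 2.29, edgeR quasi-likelihood test, adjusted p = 1.54e-05), a 4.20-fold difference. The form of LSD1 and its amount therefore changed together between the groups, and their parts in every difference described below cannot be told apart. In the SRRM4 cells KDM1A RNA was at the level of the empty vector.

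**Figure D1:**
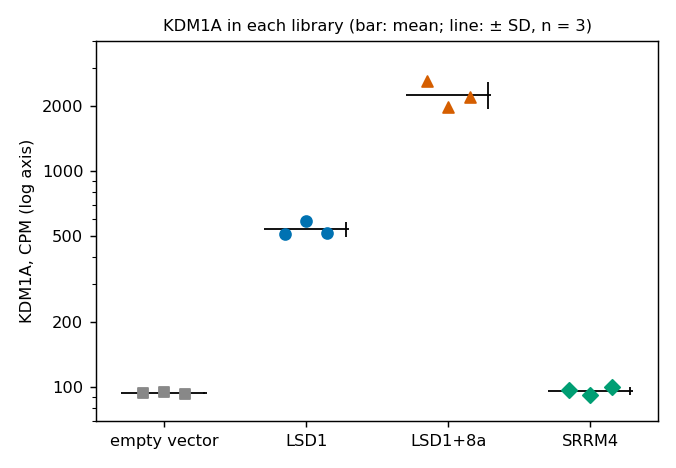
KDM1A in CPM (log axis) in each of the 12 libraries, by group; horizontal bars are means and vertical lines ± SD over 3 libraries. The 3 LSD1+8a libraries lie between 1983 and 2608 CPM, above all 3 LSD1 libraries at 515 to 587 CPM.

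All 6 libraries kept the prostate luminal profile of LNCaP. Each of 13 luminal markers was measured, with summed levels of 9007 to 9348 CPM for LSD1+8a and 9284 to 9520 CPM for LSD1. Markers of other cell types were few: 4 of 8 basal, 3 of 10 fibroblast, 1 of 10 leukocyte (CD68), 1 of 7 endothelial (VWF) and 0 of 7 embryonic kidney markers were measured. Measured means present among the deposited counts, where the lowest total of any gene was 168 over the 12 libraries. A gene missing from them may still be expressed at a low level. No marker of any type was called. Their summed ranges in the LSD1+8a and LSD1 libraries were 83.3 to 90.9 and 82.1 to 88.9 CPM for basal, 32.8 to 33.6 and 29.1 to 33.8 CPM for fibroblast, 3.12 to 4.12 and 2.79 to 4.73 CPM for leukocyte, and 23.4 to 24.6 and 21.6 to 24.2 CPM for endothelial markers. Totals were 12.11 to 13.36 M counts for LSD1+8a and 11.66 to 12.57 M for LSD1. Mitochondrial transcripts took 6.82 ± 0.256% of counts with LSD1+8a and 6.56 ± 0.155% with LSD1 (SD, n = 3), and their part in the differences below was not tested.

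Few genes separated the forms, and those that did fell into 2 main groups. Of 13001 genes 42 passed an adjusted p of 0.05 (0.323%), 27 of them higher with LSD1+8a (0.208%) and 15 lower (0.115%). Besides KDM1A, 23 of the 26 other rises belonged to a list of interferon-stimulated genes, and 7 of the 15 falls to a list of hypoxia and glycolysis genes. The rises were the larger changes: 12 exceeded 2-fold, KDM1A included, against 1 of the falls, and the median called change was 0.82 upward and -0.31 downward on the log2 scale. In all 42 called genes the libraries of the 2 groups did not overlap, which was also true of 801 genes upward (6.16%) and 717 downward (5.51%) over the whole table. The largest called rises and falls were named only where the groups did not overlap, so this separation is no further evidence for them. The median log2 fold change of all genes was -0.000634.

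**Figure D2:**
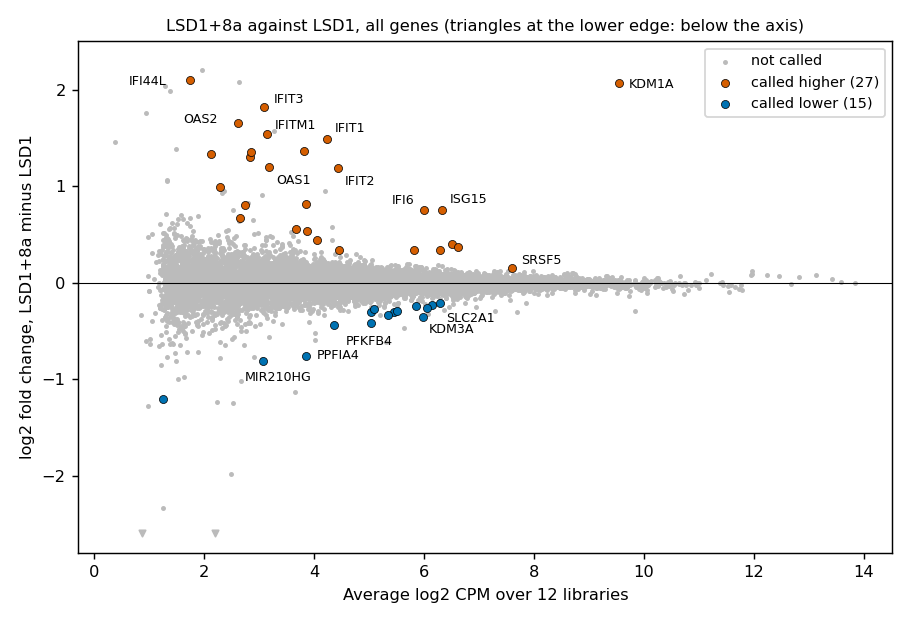
Log2 fold change of LSD1+8a minus LSD1 against the average log2 CPM over 12 libraries, with 1 point per gene. The 27 called rises (orange) reach 2.10 in IFI44L, and the 15 called falls (blue) lie mostly within 0.5 of 0.

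Interferon-stimulated genes were the largest group that differed between the forms. Of 86 listed 69 were measured, and 23 of these were higher with LSD1+8a, 0 lower and 46 not called. Before adjustment 47 members were higher and 0 lower with p under 0.05, where 385 of all genes were higher (2.96%) and 423 lower (3.25%), and DESeq2 called 21 and limma-voom 23 higher, with 0 lower in both. The list median was 0.34 on the log2 scale (range -0.04 to 2.10). In 45 members (65.2%) all 3 LSD1+8a libraries lay above all 3 LSD1 libraries, and in 0 below, against 6.16% and 5.51% of all genes. The list was chosen with earlier results of these data known, so these comparisons with all genes describe it and do not test it. Averaged over the 69 genes, log2 CPM relative to the LSD1 mean was 0.498, 0.439 and 0.452 in the LSD1+8a libraries and -0.00215, 0.0376 and -0.0355 in the LSD1 libraries. The empty-vector libraries were at -0.156, -0.169 and -0.0923, just under the LSD1 libraries. The SRRM4 libraries were at 0.408, 0.433 and 0.378, close under those with LSD1+8a. KDM1A RNA in the SRRM4 cells was at the level of the empty vector, and gene-level counts do not show its form. The cause of these levels was not tested.

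Of the 4 measured IFIT genes, whose products bind RNA and block translation of viral RNA, 3 rose. IFIT3 had 13.1, 12.3 and 13.4 CPM with LSD1+8a and 3.75, 3.75 and 3.46 CPM with LSD1, a log2 fold change of 1.82 (SE 0.13, adjusted p = 1.09e-11). IFIT1 had 35.9, 27.04 and 28.7 CPM against 10.3, 12.9 and 9.45 CPM (1.49, SE 0.14, adjusted p = 2.72e-05). IFIT2 had 32.0, 26.9 and 25.2 CPM against 10.0, 15.1 and 12.1 CPM (1.18, SE 0.13, adjusted p = 1.44e-04). The groups of these 3 genes did not overlap, as in every called gene. The empty-vector means of 3.12 ± 0.511 (IFIT3), 7.30 ± 1.42 (IFIT1) and 9.58 ± 1.46 CPM (IFIT2, SD, n = 3) were below the LSD1 means. IFIT5, named after its values were seen, was not called and its groups overlapped (5.92, 7.22 and 7.38 CPM against 5.82, 5.62 and 6.16 CPM, 0.22, adjusted p = 0.891). Reads could be shared within such families of paralogs.

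The oligoadenylate synthetases, which sense double-stranded RNA and activate RNase L, rose together with their relative OASL. OAS2 had 11.4, 10.5 and 10.1 CPM with LSD1+8a and 3.83, 3.58 and 2.70 CPM with LSD1, a log2 fold change of 1.66 (SE 0.17, adjusted p = 5.35e-08). OAS1 had 14.2, 13.2 and 13.6 CPM against 7.26, 5.28 and 5.32 CPM (1.19, SE 0.12). OAS3 was more abundant in reads and changed less, with 110.0, 108.3 and 105.8 CPM against 87.6, 80.9 and 76.3 CPM (0.40, SE 0.05, adjusted p = 5.87e-07). OASL, which lacks synthetase activity and supports RIG-I, had 23.9, 20.9 and 20.9 CPM against 7.496, 9.20 and 8.95 CPM (1.36, SE 0.11). Like those of every called gene, the groups of these 4 did not overlap. With limma-trend on log2(TPM + 1) the calls of OAS1 (1.01, adjusted p = 0.115) and OAS3 (0.47, adjusted p = 0.102) ended, and likewise at a pseudocount of 0.1 (adjusted p = 0.141 and 0.109).

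The list of nucleic acid sensors and adaptors, which contains OAS1, OAS2 and OAS3 but not OASL, had 4 higher and 0 lower among 23 measured members, with a median of 0.08. The fourth was DDX58 (RIG-I, a sensor of viral RNA), with 21.6, 19.4 and 19.8 CPM against 11.6, 12.4 and 10.5 CPM (0.82, SE 0.09, adjusted p = 2.91e-07). With p under 0.05 before adjustment, 9 members were higher and 0 lower, against 2.96% and 3.25% of all genes. DESeq2 and limma-voom called the same numbers as edgeR. All 4 called members also stand in the interferon-stimulated list, as do IFIH1, EIF2AK2, DHX58 and ADAR, so these genes are counted in both lists. IFIH1 (MDA5), a sensor of long RNA duplexes, stood at 0.39 (14.7, 12.8 and 14.1 CPM against 10.2, 11.7 and 9.96 CPM). The groups did not overlap, but the adjusted p was 0.119. The adaptors and kinases further along stood close to 0, as did the transcription factors IRF3 (0.08, adjusted p = 0.878) and IRF7 (0.07, adjusted p = 0.965).

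ISG15, a ubiquitin-like modifier, gave the smallest p of the whole table: 111.6, 105.2 and 103.9 CPM with LSD1+8a against 62.2, 65.1 and 62.9 CPM with LSD1, a log2 fold change of 0.75 (SE 0.04, 95% confidence interval 0.67 to 0.84, adjusted p = 1.62e-14). Replicates varied by far less than the 1.69-fold difference. HERC5, the ligase that attaches ISG15, rose by 0.81 (9.51, 7.93 and 9.43 CPM against 5.26, 5.53 and 4.56 CPM). RSAD2 (viperin, an antiviral radical enzyme) rose by 1.35, with 8.09, 5.39 and 7.71 CPM against 3.03, 2.72 and 2.53 CPM. In these genes, as in every called rise, no LSD1 library reached the lowest LSD1+8a library. With limma-trend on TPM the call of RSAD2 ended at both pseudocounts (0.73, adjusted p = 0.164 at 1, and 0.98, adjusted p = 0.296 at 0.1), and that of HERC5 at 0.1 (adjusted p = 0.0674).

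IFITM1, IFITM3 and BST2, which act at membranes, rose as well. IFITM1, which blocks virus entry, had 16.6, 15.1 and 13.1 CPM against 4.94, 4.77 and 5.74 CPM (1.54, SE 0.13, adjusted p = 3.8e-10). BST2 (tetherin), which retains budding virus at the cell surface, had 8.09, 6.98 and 6.64 CPM against 3.27, 2.98 and 2.36 CPM (1.33, SE 0.17, adjusted p = 5.76e-06). IFITM3, a close paralog of IFITM1 with which reads could be shared, rose by only 0.37 (118.1, 110.2 and 110.7 CPM against 87.8, 90.2 and 84.9 CPM). All 3 genes had separate groups, as every called gene did. IFITM2, the other measured paralog, named after its values were seen, was not called and its groups overlapped (26.9, 30.1 and 28.5 CPM against 29.7, 24.9 and 25.9 CPM, 0.08, adjusted p = 0.929).

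IFI44L had the largest fitted rise of the called genes: 6.44, 6.98 and 6.31 CPM against 1.83, 2.13 and 0.591 CPM, a log2 fold change of 2.10 (SE 0.24, adjusted p = 1.21e-06), or 4.30-fold. The LSD1 libraries were uneven at this low level, and the confidence interval of 1.61 to 2.60 was among the wider ones. Its call ended with limma-trend on log2(TPM + 0.1) (1.98, adjusted p = 0.139). IFI27, a protein of mitochondria and the nuclear envelope, had 13.6, 11.4 and 13.04 CPM against 4.94, 5.11 and 5.401 CPM (1.30, SE 0.13, adjusted p = 3.11e-08). IFI6, a survival factor of mitochondria and endoplasmic reticulum, had 98.0, 86.4 and 98.9 CPM against 57.6, 59.5 and 50.8 CPM (0.75, adjusted p = 1.54e-05). Further called members, named like IFI6 and IFITM3 after their values were seen, were SAMD9 (0.67), DDX60 (0.53), HERC6 (0.44) and LGALS3BP (0.34). SAMD9 lost its call without LSD1+8a replicate 1 or 2 or LSD1 replicate 1 or 3 (adjusted p 0.0603 to 0.144), and HERC6 without LSD1+8a replicate 3 or LSD1 replicate 1 or 3 (0.103 to 0.272). SAMD9 and HERC6 also lost their calls in DESeq2 (adjusted p = 0.138 and 0.131), and these 2, DDX60 and LGALS3BP with limma-trend on TPM (adjusted p 0.426 to 0.587).

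Of the signalling chain that drives these genes, IRF9 rose. IRF9, which gives the complex its DNA contact, had 17.4, 17.1 and 17.2 CPM against 11.6, 12.3 and 11.4 CPM (0.55, SE 0.10, adjusted p = 0.0018). IRF9 is itself interferon-stimulated and stands in that list as well. STAT2, its partner, was at 0.08 (95% confidence interval -0.01 to 0.17, adjusted p = 0.809). The receptor chains IFNAR1 (-0.05) and IFNAR2 (0.02) and the kinases JAK1 (0.20) and TYK2 (0.05) had adjusted p-values of 0.857 to 0.999. Over the 23 measured genes of interferon receptors and their signalling 2 were called higher and 0 lower, with a median of 0.07. DESeq2 and limma-voom gave the same counts. With p under 0.05 before adjustment 5 were higher and 0 lower, against 2.96% and 3.25% of all genes. USP18, which damps the receptor, was at 0.19 (22.5, 25.1 and 22.7 CPM against 20.7, 20.4 and 20.6 CPM, adjusted p = 0.623).

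Other interferon-stimulated genes were not called. MX1, a GTPase against influenza and other viruses, had 6.51, 5.79 and 5.25 CPM against 5.82, 5.36 and 3.12 CPM, and its groups overlapped (0.29, 95% confidence interval -0.09 to 0.68, adjusted p = 0.878). HELZ2 (0.18) and PARP9 (0.19), coregulators of interferon responses, had non-overlapping groups and an adjusted p of 0.139 each. These genes were named after their values were seen.

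**Figure D3:**
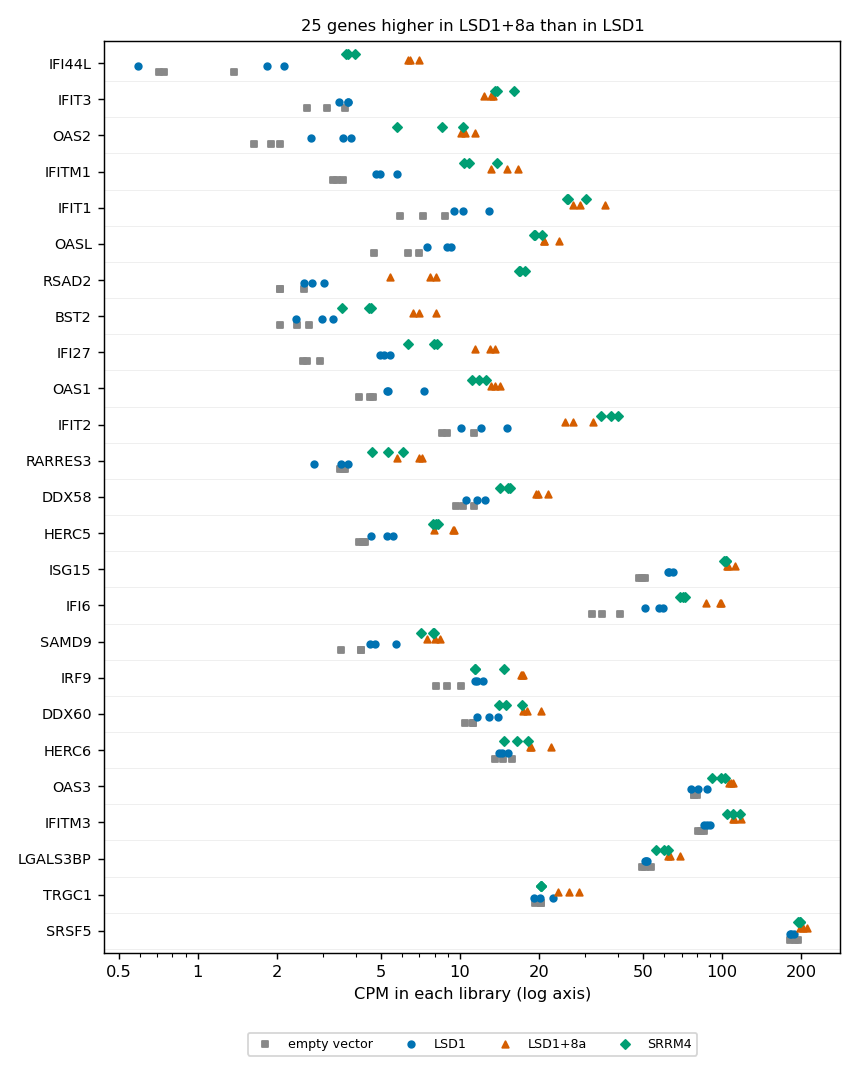
CPM in each of the 12 libraries (log axis) for 25 called rises other than KDM1A, by group. LSD1+8a (triangles) lies to the right of LSD1 (circles) in each row; the empty vector (squares) lies mostly at or to the left of LSD1, and SRRM4 (diamonds) lies to the right of LSD1 in most rows.

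Against the empty vector the 2 forms gave the following values, which share the same 3 control libraries. ISG15 stood at 1.11 for LSD1+8a (adjusted p = 1.53e-19) and at 0.36 for LSD1 (adjusted p = 8.55e-05). IFI6 stood at 1.40 (adjusted p = 7.63e-09) and 0.64 (adjusted p = 0.00217), and IFI27 at 2.24 (adjusted p = 1.64e-13) and 0.94 (adjusted p = 0.00277). These 3 genes were therefore higher than in the empty vector with either form, by more with LSD1+8a. IFIT3 stood at 2.05 (adjusted p = 1.84e-13) and 0.23 (adjusted p = 0.91), and OAS2 at 2.51 (adjusted p = 1.13e-11) and 0.85 (adjusted p = 0.295). Of the 69 interferon-stimulated genes 28 were called for LSD1+8a, counted without regard to direction. Over all 13001 genes 37 were called higher (0.285%) and 8 lower. For LSD1 only ISG15, IFI6 and IFI27 of the list were called, all higher, where 0.0462% of all genes were called higher. Of the 15 called falls, 13 had an empty-vector mean between those of the 2 forms and 2 had it above both. Against the empty vector 4 of these falls were called lower for LSD1+8a, and 0 were called for LSD1 in either direction. A fall here therefore means lower than with LSD1, and not always lower than with the empty vector.

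The promoters of many of these genes hold the element that the IRF9 complex binds, and a few are shown for that reason. The motif was written as GAAA, any 2 bases and GAAA again, and sought on both strands of the 300 bases from 250 before to 50 after the start site (RefSeq, GRCh38.p14). It occurred in 3.65% of 27305 promoters, in 14 of the 19 with a window among the 26 called rises other than KDM1A (73.7%), and in 18 of 34 uncalled interferon-stimulated genes (52.9%). The 30-base windows below, each read along the gene's strand with 1 match in capitals, lie before the start site at chr1:1013380-1013409 (ISG15, plus strand), chr10:89392497-89392526 (IFIT1, plus strand), chr14:94110618-94110647 (IFI27, plus strand), chr19:17405741-17405770 (BST2, minus strand) and chr4:168318821-168318850 (DDX60, minus strand).
ISG15: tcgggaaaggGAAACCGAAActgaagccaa
IFIT1: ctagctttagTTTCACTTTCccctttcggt
IFI27: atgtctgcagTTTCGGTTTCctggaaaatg
BST2: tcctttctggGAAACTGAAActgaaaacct
DDX60: gtgctgaaggGAAACTGAAAcctaagtgct
In IFIT1 and IFI27 the match is on the opposite strand and therefore reads as its reverse complement. The windows of ISG15 and BST2 hold an overlapping further match, left in lower case. MX1 and TAP1, which were not called, hold the motif as well. A match describes letters and no binding was measured.

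Besides KDM1A, 3 rises lay outside the interferon list. RARRES3, a phospholipase that retinoids and interferon induce, had 7.19, 6.98 and 5.74 CPM with LSD1+8a against 3.51, 3.75 and 2.78 CPM with LSD1 (0.99, SE 0.17, adjusted p = 5.22e-04). SRSF5, a serine/arginine-rich splicing factor, had 198.7, 203.0 and 210.5 CPM against 180.9, 187.0 and 182.8 CPM, a rise of only 0.15 (adjusted p = 0.0288). It was the 1 called member of 59 measured splicing regulators, whose median was 0.01. SRSF5 lost its call without LSD1+8a replicate 2 or 3 or LSD1 replicate 1 or 3 (adjusted p 0.089 to 0.29) and in DESeq2, which called no splicing regulator. TRGC1, a T-cell receptor gamma constant gene whose locus is transcribed in prostate epithelium, was at 0.34 (28.5, 25.9 and 23.7 CPM against 20.1, 22.7 and 19.1 CPM, adjusted p = 0.0423). Its call ended without LSD1+8a replicate 1 or 2 or LSD1 replicate 1 or 3 (adjusted p 0.142 to 0.441). The TRGC1 call also ended in DESeq2 (0.338), in the fit of the 2 groups alone (0.0701), on TPM (0.571 and 0.581) and with a replicate block. Reads of TRGC1 could be shared with related genes of the locus.

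Genes of the response to low oxygen and of glycolysis formed the second group, with small falls. Of 46 listed 42 were measured, and 7 were lower with LSD1+8a, 0 higher and 35 not called. With p under 0.05 before adjustment, 20 were lower and 1 higher, against 3.25% and 2.96% of all genes. Of the 42 fold changes 38 were negative, with a median of -0.14, where 6549 of all 13001 genes had a negative one. In 15 members (35.7%) all LSD1+8a libraries lay below all LSD1 libraries, against 5.51% of all genes. This list, too, was chosen with earlier results of these data known. Averaged over the 42 genes, log2 CPM relative to the LSD1 mean was -0.176, -0.117 and -0.22 with LSD1+8a and 0.052, -0.0225 and -0.0296 with LSD1. The empty-vector libraries were at -0.044, -0.0227 and -0.153 and the SRRM4 libraries at -0.0987, -0.137 and -0.143. The LSD1+8a and LSD1 libraries did not overlap, but empty-vector replicate 3 lay within the LSD1+8a range. The count of 7 became 2 without LSD1 replicate 1, 4 without LSD1 replicate 2, 3 without LSD1+8a replicate 3 and 0 with limma-trend on TPM.

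Regulators of the hypoxia response were among the falls. EGLN1 (PHD2), the oxygen-dependent hydroxylase that marks hypoxia-inducible factor for decay, had 40.3, 41.5 and 40.8 CPM with LSD1+8a and 50.002, 52.0 and 48.1 CPM with LSD1 (-0.29, SE 0.06, adjusted p = 0.00772). Its call ended without LSD1 replicate 2 (adjusted p = 0.0803). KDM3A, a hypoxia-induced histone demethylase, had 57.8, 57.6 and 49.9 CPM against 74.7, 68.4 and 68.6 CPM (-0.36, SE 0.06, adjusted p = 7.89e-04). KDM3A kept its call without each library in turn and was the 1 called gene among 19 measured other histone demethylases, whose median was 0.01. HIF1A, which encodes the oxygen-labile subunit itself, was not called (0.05, 95% confidence interval -0.03 to 0.13, adjusted p = 0.923).

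MIR210HG, the host transcript of the hypoxia-induced microRNA miR-210, was the largest fall among the called genes with a symbol and was not in the list. It had 5.39, 6.58 and 6.31 CPM with LSD1+8a against 10.8, 10.98 and 10.2 CPM with LSD1 and fell by 0.81 on the log2 scale (SE 0.13, adjusted p = 1.44e-04). The empty-vector libraries had 8.60, 10.1 and 7.91 CPM, between the groups. This call held without each library in turn. With limma-trend on TPM it and a gene with a clone name were the 2 of the 15 falls that kept their calls. ZNF395, a hypoxia-induced transcription factor, had 41.6, 34.8 and 38.5 CPM against 48.6, 46.8 and 47.1 CPM (-0.31, adjusted p = 0.00657) and lost its call without LSD1+8a replicate 2 (adjusted p = 0.145) or LSD1 replicate 1 (0.0741).

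SLC2A1, HK2 and PFKFB4, which act in glucose uptake and glycolysis, were lower as well. SLC2A1 (GLUT1, the basal glucose transporter) had 60.4, 68.6 and 64.0 CPM against 78.5, 76.9 and 71.9 CPM (-0.24, SE 0.05, adjusted p = 0.0129). HK2, the hexokinase that traps glucose in the cell, had 75.4, 79.0 and 69.5 CPM against 88.6, 83.0 and 86.9 CPM (-0.21, SE 0.05, adjusted p = 0.0424). PFKFB4, which sets the level of an activator of glycolysis, had 30.9, 31.01 and 25.3 CPM against 40.8, 36.02 and 39.7 CPM (-0.42, SE 0.08, adjusted p = 0.00606). DESeq2 did not call SLC2A1 (adjusted p = 0.0639) or HK2 (0.172). None of these calls held without each library: SLC2A1 lost it without LSD1+8a replicate 1 or 3 or LSD1 replicate 1 or 2 (adjusted p 0.0629 to 0.177), HK2 without LSD1+8a replicate 1 or 3 or LSD1 replicate 1 or 3 (0.0842 to 0.399), and PFKFB4 without LSD1+8a replicate 3 or LSD1 replicate 1 or 3 (0.0583 to 0.09). PPFIA4 (liprin alpha, also hypoxia-induced) had 9.88, 13.1 and 10.7 CPM against 20.9, 17.6 and 18.2 CPM (-0.76, adjusted p = 0.0424). It lost its call without each library except LSD1+8a replicate 2 (adjusted p 0.092 to 0.246).

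Other members of the list leaned the same way without being called, and were named after their values were seen. PFKFB3, the paralog of PFKFB4, had 37.7, 30.5 and 27.1 CPM against 53.4, 45.2 and 48.2 CPM, a larger difference than most called falls (-0.62, 95% confidence interval -0.93 to -0.31, adjusted p = 0.253). DESeq2 called it (adjusted p = 0.00532), as did edgeR without LSD1+8a replicate 1 (0.009). LDHA, which makes lactate, had 770, 893 and 775 CPM against 932, 914 and 842 CPM (-0.14, adjusted p = 0.674) and was called only without LSD1+8a replicate 2 (-0.21, adjusted p = 0.00127). BNIP3 (-0.21, adjusted p = 0.673) and VEGFA (-0.13, adjusted p = 0.914), classical hypoxia targets, were not called, and CA12 stood above 0 (0.15, adjusted p = 0.606).

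The other falls belonged to no single list. PPP1R3B, which directs a phosphatase to glycogen, had 30.3, 30.5 and 29.6 CPM against 37.7, 36.6 and 37.2 CPM (-0.30, SE 0.06, adjusted p = 0.0119), with little spread in either group. Its call ended without LSD1+8a replicate 3 or LSD1 replicate 1 or 3 (adjusted p 0.0621 to 0.0958). RIMKLA, which makes the neuropeptide N-acetylaspartylglutamate, was at -0.28, GCSH, the H protein of glycine cleavage, at -0.26, and PRR7, a synaptic membrane protein, at -0.34, with adjusted p-values of 0.0414 to 0.0424. C4orf48 (-0.44) and C8orf82 (-0.24) had adjusted p-values of 0.0263 and 0.0322. All 5 lost their calls without single libraries of either group, C4orf48 without each except LSD1+8a replicate 3, RIMKLA without each except LSD1+8a replicate 2, PRR7 without each except LSD1+8a replicate 3 or LSD1 replicate 1, GCSH without each except LSD1+8a replicate 1 or LSD1 replicate 1, and C8orf82 without each except LSD1+8a replicate 1 or LSD1 replicate 2 (highest adjusted p 0.313, 0.272, 0.327, 0.288 and 0.58). DESeq2 called none of these 5 or PPP1R3B (adjusted p 0.0639 to 0.289). Reads of GCSH could be shared with its pseudogenes. The only fall beyond 2-fold was in a gene known by a clone name (-1.21, adjusted p = 0.0136), which lost its call without 4 of the 6 libraries (LSD1+8a replicate 1 or 3, LSD1 replicate 1 or 2; adjusted p 0.0557 to 0.0856).

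**Figure D4:**
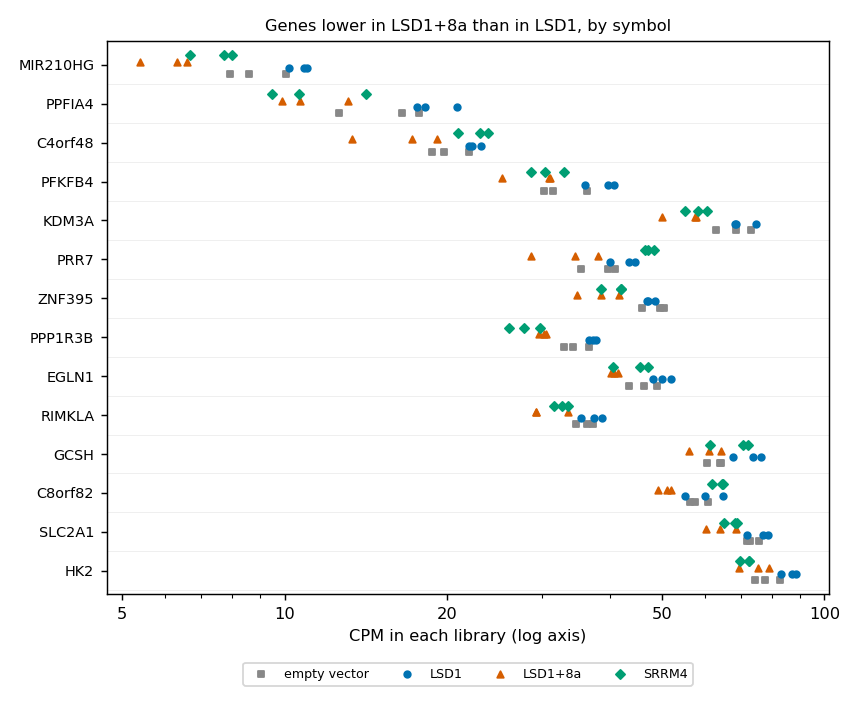
CPM in each of the 12 libraries (log axis) for the 14 called falls with a gene symbol, by group. LSD1+8a (triangles) lies to the left of LSD1 (circles) in each row, and the empty vector (squares) overlaps 1 or both of them in most rows.

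Several of these promoters hold the core letters of the hypoxia response element, ACGTG, shown to set beside the interferon element. Sought on both strands of the same windows it occurred in 21.6% of 27305 promoters, in 5 of the 10 with a window among the 15 falls (50%), and in 19 of 37 promoters of the hypoxia list (51.4%). Among the called rises other than KDM1A it occurred in 4 of 19 (21.1%), and the interferon element in 0 of the 10 among the falls. A CACGTG matches on both strands and was counted once per promoter, and neither motif contains the other. The windows are at chr11:568610-568639 (MIR210HG, minus strand), chr1:203026361-203026390 (PPFIA4, plus strand) and chr2:74834067-74834096 (HK2, plus strand).
MIR210HG: ctccccgggcagACGTGcagaaaagaacgc
PPFIA4: ggcgctctcgtcACGTGcccggacccgagg
HK2: aatgggcgtgcgCACGTcactgatccggag
In HK2 the match is on the opposite strand. In PPFIA4 the letters match on both strands, and 1 match is in capitals.

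The partners of LSD1 did not differ detectably between the forms. Of 28 measured members of the CoREST complex and its partners edgeR, DESeq2 and limma-voom each called 0, with 0 higher and 1 lower with p under 0.05 before adjustment and a median of -0.01. RCOR1 had 61.6, 64.4 and 66.3 CPM with LSD1+8a against 64.9, 62.1 and 60.7 CPM with LSD1 (0.03, 95% confidence interval -0.06 to 0.13). The deacetylases HDAC1 (-0.02, interval -0.09 to 0.06) and HDAC2 (-0.05, interval -0.13 to 0.03), the paralog KDM1B (0.06, interval -0.05 to 0.18) and REST itself (0.04, interval -0.07 to 0.16) stood as close to 0. SVIL (supervillin), a reported partner of LSD1+8a in neurons, had 16.9, 19.4 and 18.5 CPM against 18.98, 17.1 and 19.4 CPM (-0.02, interval -0.19 to 0.15).

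Measured REST targets and neuroendocrine markers were not called higher with the neuronal form. Of 68 listed REST targets only 23 were measured. Of these edgeR, DESeq2 and limma-voom each called 0, with a median of -0.05. Before adjustment 4 were lower and 0 higher with p under 0.05, where 3.25% and 2.96% of all genes were. The 4 were HES6 (-0.16, a neurogenic factor), CPLX1 (-0.27, complexin of the synapse), RAB3A (-0.17, a synaptic vesicle GTPase) and PCSK1N (-0.36, a proprotein convertase inhibitor), with adjusted p-values of 0.392 to 0.673. Only 8 of 34 neuroendocrine markers were measured, and low-level changes in REST targets or markers that were not measured could not be seen. None of the 8 was called by any of the 3 tools, and 0 passed an unadjusted p of 0.05 in either direction (median -0.05). SYP (synaptophysin) had 2.92, 2.93 and 2.21 CPM against 2.71, 2.47 and 2.53 CPM (0.07, interval -0.32 to 0.46), while the SRRM4 libraries had 27.5, 25.8 and 28.1 CPM. VGF, a neuropeptide precursor, had 1.498, 1.82 and 1.64 CPM against 1.83, 1.28 and 2.03 CPM (-0.05, interval -0.53 to 0.42) and 18.9, 20.8 and 18.2 CPM with SRRM4.

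The androgen receptor program, the main identity of LNCaP, showed 0 calls among 45 measured targets in edgeR, DESeq2 and limma-voom (median 0.0022), with 1 higher and 4 lower with p under 0.05 before adjustment. KLK3, which encodes prostate-specific antigen, had 2960, 3119 and 3025 CPM against 3366, 3216 and 3160 CPM (-0.10, interval -0.16 to -0.04, adjusted p = 0.336). KLK2, its neighbour and paralog, had 501.6, 530.2 and 504.8 CPM against 584.6, 555.4 and 521.2 CPM (-0.11, adjusted p = 0.289), and was called only without LSD1 replicate 3 (-0.15, adjusted p = 0.0476). ACPP, prostatic acid phosphatase, leaned the other way with 96.9, 93.2 and 90.9 CPM against 82.4, 87.5 and 85.2 CPM (0.14, adjusted p = 0.293). The KLK3 and ACPP groups did not overlap, those of KLK2 did, and all 3 differences were small.

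Growth and stress lists held 0 calls in all 3 tools. Among 40 measured p53 targets 1 was higher and 3 lower with p under 0.05 before adjustment (median -0.02). GDF15, a stress cytokine in that list, had 837.9, 778.9 and 817.0 CPM against 1020, 947.8 and 1016 CPM (-0.29, adjusted p = 0.606), and was called only when the 2 groups were fitted alone (adjusted p = 3.193e-06). Of 56 G2/M and 47 S-phase genes 3 and 0 were lower at that p and 0 higher (medians -0.02 and -0.0069). The unfolded protein and ATF4 list had 0 higher and 4 lower of 44 (median -0.02), the heat shock and NRF2 list 1 and 1 of 34 (0.00083), NF-kB subunits and targets 2 and 0 of 18 (0.02), and immediate early genes 1 and 0 of 22 (-0.02). In metabolism, cholesterol and fatty acid synthesis had 0 and 1 of 35 (-0.03), nuclear respiratory chain subunits 0 and 4 of 77 (-0.02) and the insulin, PI3K and FOXO list 1 and 0 of 28 (0.0032).

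Structural and chromatin lists were likewise without calls in the 3 tools. Polycomb proteins and methyltransferases had 0 members with p under 0.05 before adjustment among 44 (median -0.01), histone genes 0 higher and 1 lower of 24 (-0.02), and cytosolic ribosomal proteins 0 and 2 of 80 (-0.03). Epithelial and mesenchymal genes had 0 and 1 of 21 (-0.0014), nuclear noncoding RNAs 0 and 1 of 18 (-0.0080) and prostate luminal genes 1 and 2 of 20 (-0.02). The 15 transcripts of the mitochondrial genome leaned upward, with 5 higher and 0 lower at that p, against 2.96% and 3.25% of all genes, and a median of 0.08. Averaged over these 15, LSD1+8a replicate 1 stood at 0.134 relative to the LSD1 mean and replicates 2 and 3 at 0.0158 and 0.0319, within or near the LSD1 range of -0.0325 to 0.0239.

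**Figure D5:**
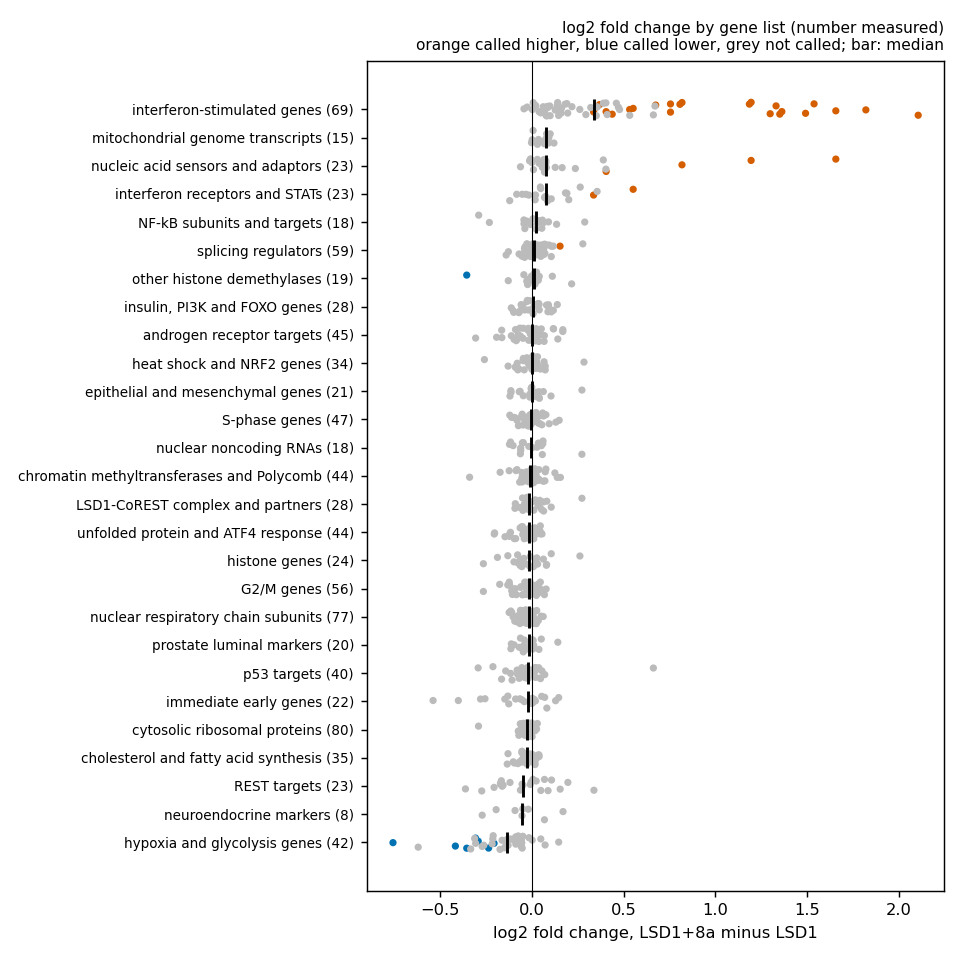
Log2 fold change of LSD1+8a minus LSD1 for the measured genes of 27 lists, with 1 point per gene and a bar at each median; list sizes are in brackets and KDM1A is left out. Interferon-stimulated genes stand apart upward (median 0.34) and hypoxia and glycolysis genes downward (median -0.14), while the other medians lie between -0.05 and 0.08.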

How the data were processed

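Per the file headers, the deposited count table gives raw counts of each gene in all 12 libraries, the deposited TPM table gave the same genes as TPM, and the authors' comparison table held log2 fold changes, p-values and adjusted p-values for each transfection against the empty vector. STAR (2.5.3a), RSEM (1.2.31) and the build hg19 are listed, with no role, in the submitters' processing notes. Counts were scaled by TMM. A single model of the 4 groups, with no replicate block, was fitted in edgeR 4.0.16 under R 4.3.3, using its robust quasi-likelihood test. filterByExpr removed 0 of 13001 genes. Calls required p under 0.05 after Benjamini-Hochberg adjustment across the whole table.

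Members and lists were chosen with earlier results of these data known. Named genes were KDM1A, the 15 largest called rises and falls among genes averaging 0 or more in log2 CPM whose groups did not overlap, and up to 4 members with the smallest p from each list. Exceptions are marked, genes with clone names are not named, and some items are not reported here. Alternatives were RLE and upper-quartile factors, removal of KDM1A from the table, filters left out or made stricter, DESeq2 1.42.0, limma-voom and limma-trend on log2 TPM (limma 3.58.1, pseudocounts 1 and 0.1), a replicate block, only the 2 groups, a 1.5-fold threshold and leaving out each library. Replicate pairs of the 2 groups varied more than counting error (chi-square per degree of freedom 1.55 to 2.88). The biological coefficient of variation was 2.98%, and the median SE of a log2 fold change was 0.07.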

Additional observations from a re-analysis of the deposited data

How the results depend on the processing

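KDM1A stayed higher with LSD1+8a in each alternative in which it was fitted (1.96 to 2.16 without single libraries). The 27 genes higher became 17 with limma-trend on log2(TPM + 0.1) and 13 against a 1.5-fold change, and ranged from 23 to 29 without single libraries. The 15 genes lower became 7 with DESeq2, 2 with limma-trend at either TPM pseudocount, 0 against a 1.5-fold change, and 6 to 16 without single libraries: 6 without LSD1 replicate 1, 9 without replicate 2 and 8 without replicate 3. These were partly other genes. Of the 7 with DESeq2, 6 were among the 15. Without LSD1+8a replicate 1 this held for 8 of 16, without replicate 2 for 10 of 11 and without replicate 3 for 6 of 11. Only 2 of the 15 falls kept their call without each library in turn, against 22 of the 26 rises other than KDM1A. Higher genes made up 64.3% of calls, 78.1% with DESeq2 and 90.5% with limma-trend on log2(TPM + 1). Of the 26 rises other than KDM1A 9 were called in all 18 alternatives and 14 in all but the fold threshold; of the falls these were 0 and 1 (MIR210HG). No call reversed. Interferon-stimulated genes numbered 21 to 23 higher in each fit on counts except the 1.5-fold threshold (12), and 13 to 15 on TPM. The cause of these differences was not tested. Same-numbered libraries of the 2 groups showed hardly any common deviation (r = 0.00485, 0.0537 and -0.013 over 10671 genes). LSD1+8a replicate 1 correlated best with LSD1 replicate 3 (r = 0.0494), and LSD1+8a replicate 2 with its own number. Correlations this small cannot show whether libraries of the same number were prepared together. With the replicate block 28 genes were higher (26 shared with the model without it) and 11 lower (11 shared). Depth limits genes of few counts such as IFI44L and SYP, whose intervals span over 0.7 on the log2 scale.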

Other observations

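CLU, which encodes the secreted chaperone clusterin, was the uncalled gene with the smallest p. CLU, TRPV1, MAGED4 and MAGED4B were chosen after their values were seen. Its libraries held 36.6, 25.4 and 24.2 CPM with LSD1+8a, 15.8, 13.96 and 14.9 CPM with LSD1, 11.05, 12.2 and 14.3 CPM with the empty vector and 17.3, 17.3 and 13.5 CPM with SRRM4. LSD1+8a replicate 1 stood above the other 2, and all 3 stood above each LSD1 library (log2 fold change 0.95, 95% confidence interval 0.58 to 1.33, adjusted p = 0.0672). It was called with DESeq2 (adjusted p = 5.022e-08), with limma-trend on TPM at either pseudocount (0.00341 and 0.00326), with upper-quartile factors (0.0416) and without LSD1+8a replicate 1 (0.74, adjusted p = 2.976e-05) or replicate 3 (1.06, adjusted p = 0.00506).

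TRPV1, a heat and capsaicin channel of sensory neurons, had 3.29, 4.20 and 2.13 CPM with LSD1+8a and 0.957, 0.255 and 1.10 CPM with LSD1 (2.04, 95% confidence interval 1.02 to 3.07, adjusted p = 0.207). DESeq2 called it (adjusted p = 0.00132), as did edgeR on the 2 groups alone (0.00502). The empty-vector libraries had 2.21, 1.86 and 3.04 CPM, nearer to LSD1+8a than to LSD1.

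MAGED4 and MAGED4B, near-identical neighbouring copies between which reads can be split, had differences of opposite sign, neither called. MAGED4 had 14.4, 13.2 and 11.2 CPM with LSD1+8a against 6.14, 5.96 and 0.844 CPM with LSD1 (1.57, adjusted p = 0.806), and MAGED4B 5.09, 6.66 and 10.3 CPM against 14.4, 13.96 and 19.7 CPM (-1.14, adjusted p = 0.693).

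In the authors' deposited table of LSD1 against the empty vector, 12350 of 13001 adjusted p-values are missing. The 651 given belong to genes with a mean of at least 2809 counts per library, and those missing to genes with a mean of at most 2804 counts. In the authors' deposited table ISG15 and IFI6 are among 4 genes without an adjusted p whose unadjusted p is under 1e-05, whereas the table of LSD1+8a against the empty vector has 0 missing.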
